A study of Homo sapiens with 6 samples.

Results

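The mitochondrial chromosome of human cells carries 37 genes, and all 37 were followed here in SH-SY5Y cells that overexpressed the nuclear receptor ERRγ. They were chosen by name from the annotated count table of 67060 genes: 13 encode proteins of the respiratory chain, 2 encode ribosomal RNAs and 22 encode tRNAs. On the normalized scale the summed mRNA of the chromosome overlapped between the groups, whereas the rRNA that remained after depletion and part of the tRNA signal were about doubled. Of the 23 genes with enough counts to test, 8 were called higher with ERRγ (MT-ND3, both rRNAs and 5 tRNAs) and 0 lower. The shares over all 24500 genes tested were 17.3% higher and 16.8% lower.

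Mitochondrial DNA is read from both strands as long transcripts that span many genes. Most mRNAs and rRNAs are separated by tRNAs, whose excision releases the RNAs on either side, so that the level of each mature RNA depends on processing and decay as well as on transcription. The 13 proteins are core subunits of complexes I, III, IV and V and are assembled with partners that the nucleus encodes. ERRγ, the product of ESRRG, is an orphan nuclear receptor known for activating nuclear genes of oxidative metabolism.

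SH-SY5Y is a human neuroblastoma line, here labelled as neuronal progenitors. Cells grown to near confluence received an adenovirus with the CMV promoter in front of GFP (Ad CMV GFP) or in front of mouse Esrrg with a 3xFlag tag (Ad CMV 3xFlag-Esrrg), and total RNA was taken after 24 h. Ribosomal RNA was removed before sequencing. There were 3 libraries per group, replicates 1, 3 and 4 of Ad CMV GFP and replicates 2, 3 and 4 of Ad CMV 3xFlag-Esrrg. The labels do not say whether they came from separate cultures, so p-values measure only the spread between these libraries. A CMV-driven virus gives receptor levels above those of the cell's own gene, and no uninfected cells were included.

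ESRRG was counted 2357, 2796 and 2876 times with Ad CMV GFP and 15228, 25994 and 26497 times with Ad CMV 3xFlag-Esrrg. The groups did not overlap (log2 fold change 3.02, SE 0.14, adjusted p = 6.28e-07 by edgeR's quasi-likelihood test with Benjamini-Hochberg adjustment, used throughout). Viral reads come from the mouse sequence, so only those that aligned to the human gene were counted. Between 24969759 and 40859666 reads per library fell on genes. Of the adrenergic markers of the line, PHOX2A, HAND2, GATA3 and ISL1 were above 25 normalized CPM in the mean of both groups, and TH had 0 counts in every library. A count of 0 sets no limit on reads assigned to no gene, so TH is not shown to be absent. NDUFA6, a subunit of complex I, also had 0 counts in every library. PHOX2A was called higher with ERRγ and DBH, the enzyme that makes noradrenaline, lower. All 7 mesenchymal markers examined, PRRX1 and FN1 among them, were also expressed, and YAP1 was called lower. Replicate 2 of Ad CMV 3xFlag-Esrrg stood between the groups: 46.6% of its reads were assigned to no feature (no exon of an annotated gene), against 51.3% to 52.2% with Ad CMV GFP and 29.5% to 31.6% in the other two libraries of its group.

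The 13 mRNAs carried nearly all counts of the mitochondrial chromosome. Their summed level was 59314, 62045 and 65134 normalized CPM in Ad CMV GFP replicates 1, 3 and 4 and 68685, 56584 and 58309 in Ad CMV 3xFlag-Esrrg replicates 2, 3 and 4. The groups overlapped, with the highest and the lowest library both in the ERRγ group, and the ratio of the means was 0.984. Normalized CPM here means counts per 1000000 counted reads after edgeR's TMM scaling, a share of the RNA counted and not an amount per cell: fewer cells, less RNA per cell and a larger share of other RNA cannot be told apart. Without TMM scaling, all 37 genes took 6.71%, 6.87% and 7.28% of the counted reads with Ad CMV GFP and 6.95%, 4.82% and 4.88% with Ad CMV 3xFlag-Esrrg. The widest Wilson 95% interval of these shares reached 0.00981 percentage points to either side, which covers counting error only. On this scale replicates 3 and 4 of the ERRγ group were below every control and replicate 2 was not. As a share of all reads, including those assigned to no gene, the values were 2.41%, 2.51% and 2.65% against 2.67%, 2.21% and 2.33%, again with replicate 2 as the highest library.

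The other classes moved apart from the mRNAs. The summed rRNA level was 69.7, 64.8 and 101.3 normalized CPM with Ad CMV GFP and 142.1, 175.7 and 154.9 with Ad CMV 3xFlag-Esrrg, a ratio of the means of 2.005. The tRNA sum was 48.9, 49.4 and 49.7 against 87.3, 119.2 and 114.3, a ratio of 2.17. In both classes every ERRγ library was above every control. Most of the tRNA signal was the single gene MT-TP: without it the sum was 16.2, 14.9 and 13.8 against 17.1, 22.04 and 21.6 normalized CPM, a ratio of 1.35. Sums over the members were not tested and are given as a description.

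**Figure D1:**
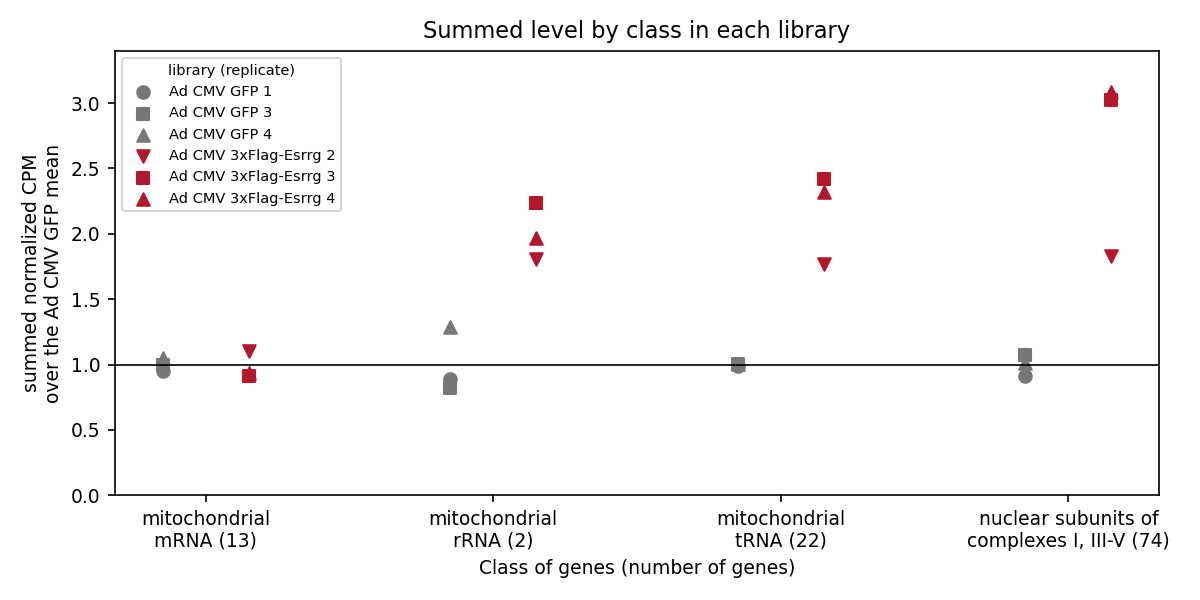
Summed normalized CPM of the mitochondrial mRNA, rRNA and tRNA genes and of 74 nuclear subunit genes in each library (points, shape by replicate), divided by the Ad CMV GFP mean of the class (line at 1). The mRNA groups overlap (ratio of means 0.984), while every Ad CMV 3xFlag-Esrrg library is above the controls for rRNA (2.005), tRNA (2.17) and nuclear subunits (2.65).

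Of the 24500 genes tested, 17.3% were called higher with ERRγ (adjusted p below 0.05 and at least 1.5-fold) and 16.8% lower. This split of 4234 against 4117 genes depended on the scaling and was 2200 against 7566 with library size alone, where the median of all genes lay at -0.42 on the log2 scale in place of -0.10. Among the 37 mitochondrial genes, 23 passed the filter on low counts, of which 8 were called higher and 0 lower by edgeR. DESeq2, which called 13.1% of all genes lower, also called 0 members lower (and 7 higher, all but MT-TS2), and MT-ND4L was the one gene below 0 on the log2 scale with an unadjusted p under 0.05. The 23 comprise all mRNAs and rRNAs and 8 of the 22 tRNAs. The median log2 fold change of the mRNAs was -0.13, of the rRNAs 1.01 and of the tested tRNAs 0.95, against the -0.10 over all genes tested. For 9 members the groups did not overlap and ERRγ was higher, and for 0 it was lower, where 27.8% and 30.3% of all tested genes did not overlap in these directions.

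**Figure D2:**
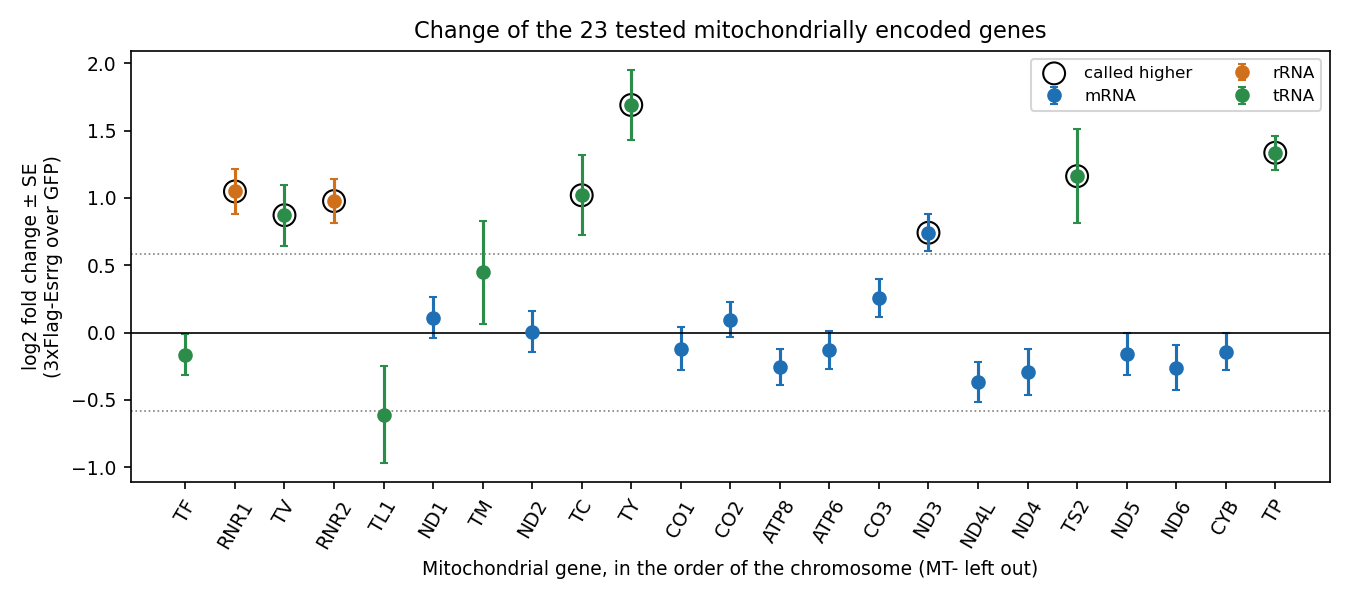
Log2 fold change (Ad CMV 3xFlag-Esrrg over Ad CMV GFP, points, with SE as bars) of the 23 tested mitochondrial genes in the order of the chromosome, coloured by class, with called genes ringed and dotted lines at 1.5-fold. MT-ND3 (0.74) is the one mRNA ringed, and the rRNAs and 5 tRNAs lie between 0.87 and 1.69.

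Complex I, the NADH dehydrogenase, contains 7 mitochondrially encoded subunits, and MT-ND3 was the only one called. MT-ND3 stood at 1444, 1640 and 1573 normalized CPM with Ad CMV GFP and at 2213, 2741 and 2830 with Ad CMV 3xFlag-Esrrg. Every ERRγ library was above every control, replicate 2 by the smallest margin (log2 fold change 0.74, SE 0.14, adjusted p = 0.00138). The call ended, at less than 1.5-fold, with library size alone (log2 fold change 0.41) and with the no-feature share of each library as a covariate (0.40). That share itself differed between the groups. The gene lay at chrM:10059-10404 on the plus strand (GRCh38), and its next neighbours downstream were MT-TR and MT-ND4L. MT-ND4L, a small membrane subunit, was at 597, 521 and 565 normalized CPM against 545, 366 and 395. Replicate 2 lay within the control range and replicates 3 and 4 below it, and the difference missed the threshold (log2 fold change -0.36, SE 0.15, adjusted p = 0.0666). The ratio of MT-ND3 to MT-ND4L counts was 2.42, 3.15 and 2.79 with Ad CMV GFP and 4.06, 7.48 and 7.16 with Ad CMV 3xFlag-Esrrg, so that these neighbours parted in each ERRγ library.

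The junction is shown because a single tRNA is all that separates these genes. In the GRCh38 sequence of the plus strand, chrM:10385-10489, the capitals mark MT-TR, with the end of MT-ND3 before it and the start of MT-ND4L after it.
MT-ND3, MT-TR and MT-ND4L: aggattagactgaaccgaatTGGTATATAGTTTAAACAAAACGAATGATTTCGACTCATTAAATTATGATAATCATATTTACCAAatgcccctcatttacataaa
MT-TR itself had 0 counts in every library. Of the stretches of 31 bases in MT-ND3, 4.1% also occurred in the nuclear chromosomes, the lowest share among the 13 mRNAs.

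The other 5 subunits of complex I did not pass the threshold. MT-ND4, one of the proton-pumping subunits and among the most counted mRNAs, was at 9710, 9924 and 10731 normalized CPM with Ad CMV GFP and at 10058, 7237 and 7501 with Ad CMV 3xFlag-Esrrg (log2 fold change -0.29, SE 0.17, adjusted p = 0.177). MT-ND5 was at 3552, 3702 and 3803 against 4049, 2899 and 2978. MT-ND6, the only protein gene on the light strand, was at 843, 790 and 808 against 884, 571 and 585, and its count ratio to the neighbouring MT-ND5 overlapped between the groups (0.2125 to 0.2372 against 0.1965 to 0.2183). For these 3 subunits replicates 3 and 4 were below every control, whereas replicate 2 was above the controls (MT-ND5, MT-ND6) or within their range (MT-ND4). MT-ND1 had 5497, 5722 and 6206 normalized CPM against 7279, 5639 and 5888 (log2 fold change 0.11, SE 0.15). MT-ND2 had 4909, 5091 and 5460 against 6149, 4588 and 4792 (log2 fold change 0.0065, SE 0.15). For both, the groups overlapped and the sign of the fold change was not stable: it was below 0 for MT-ND1 with scaling by library size alone, and for MT-ND2 also with scaling by all reads.

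**Figure D3:**
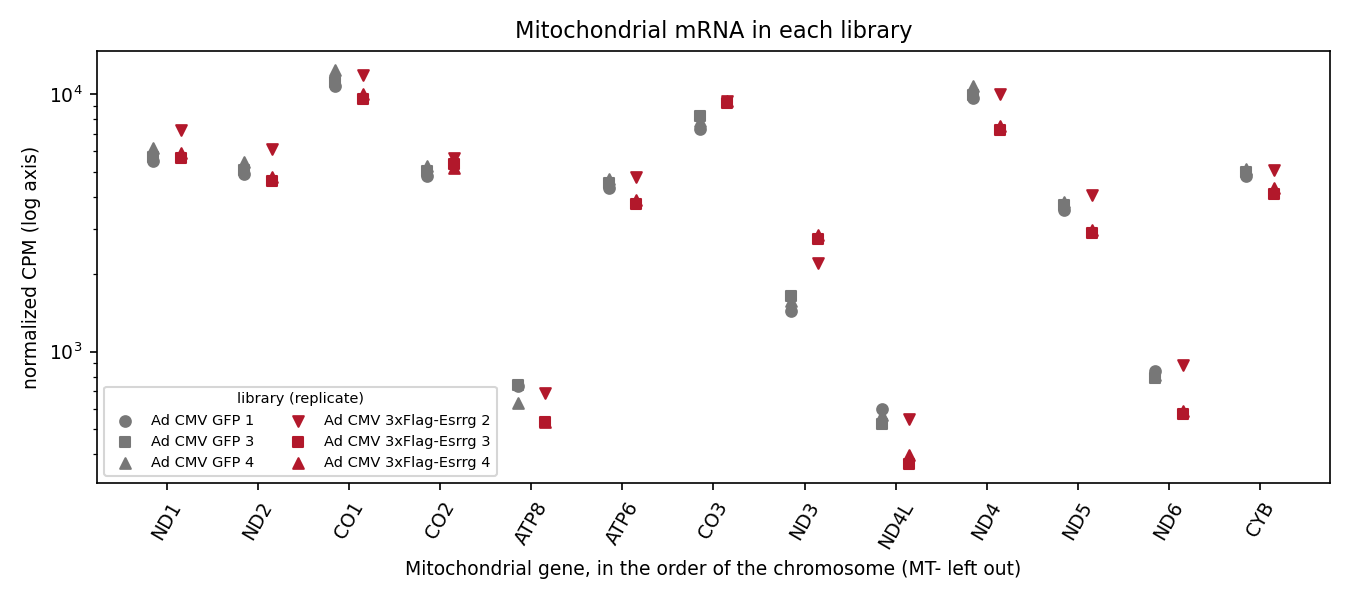
Normalized CPM (log axis) of the 13 mitochondrial mRNAs in the 3 Ad CMV GFP (grey) and 3 Ad CMV 3xFlag-Esrrg (red) libraries, with the shape of a point giving the replicate. MT-ND3 and MT-CO3 are the mRNAs for which every ERRγ library lies above every control, and for most others replicate 2 (triangle pointing down) lies above replicates 3 and 4.

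Complex III, the cytochrome bc1 complex, has 1 mitochondrial subunit. This gene, MT-CYB, was at 4803, 4977 and 5125 normalized CPM with Ad CMV GFP and at 5100, 4108 and 4312 with Ad CMV 3xFlag-Esrrg (log2 fold change -0.14, SE 0.14, adjusted p = 0.428), with overlapping groups.

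The 3 mitochondrial subunits of complex IV, cytochrome c oxidase, had different values. MT-CO3 stood at 7313, 8232 and 7880 normalized CPM with Ad CMV GFP and at 9380, 9235 and 9400 with Ad CMV 3xFlag-Esrrg. Every ERRγ library was above every control, but the difference did not pass the threshold (log2 fold change 0.26, SE 0.14, adjusted p = 0.152). MT-CO1, the catalytic subunit and the most counted mRNA, was at 10757, 11151 and 12384 against 11940, 9564 and 10050 (log2 fold change -0.12, SE 0.16). MT-CO2, which receives electrons from cytochrome c, was at 4826, 5021 and 5265 against 5639, 5340 and 5166 (log2 fold change 0.10, SE 0.13). The groups overlapped for both. With scaling by library size alone the values for MT-CO3 and MT-CO2 fell below 0. The count ratio of MT-CO3 to its upstream neighbour MT-ATP6, which is independent of that scaling, was 1.69, 1.82 and 1.67 with Ad CMV GFP and 1.97, 2.46 and 2.42 with Ad CMV 3xFlag-Esrrg.

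Complex V, the ATP synthase, has MT-ATP6 in its proton channel and the small subunit MT-ATP8. MT-ATP6 was at 4332, 4534 and 4706 normalized CPM with Ad CMV GFP and at 4757, 3761 and 3878 with Ad CMV 3xFlag-Esrrg (log2 fold change -0.13, SE 0.14). MT-ATP8 was at 732, 740 and 631 against 693, 534 and 533 (log2 fold change -0.26, SE 0.13, adjusted p = 0.136). In both, replicates 3 and 4 were below every control and replicate 2 was not. The ratio of MT-ATP8 to MT-ATP6 counts was 0.169, 0.163 and 0.134 against 0.146, 0.142 and 0.137, and the ranges overlapped. The same held for MT-ND4L over MT-ND4, at 0.0615, 0.0525 and 0.0526 against 0.0542, 0.0506 and 0.0527. Each of these pairs lies on 1 bicistronic mRNA and shares coding bases, shown here in capitals, in the GRCh38 plus strand at chrM:8512-8587 and chrM:10745-10781. Reads that cover a shared stretch belong to both genes and are set aside as ambiguous by the counting program.
MT-ATP8 and MT-ATP6: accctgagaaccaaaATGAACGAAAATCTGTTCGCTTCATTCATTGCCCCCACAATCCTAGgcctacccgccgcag
MT-ND4L and MT-ND4: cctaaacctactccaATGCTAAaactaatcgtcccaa
The capitals cover 46 bases in the first pair and 7 in the second, and begin with the start codon of the downstream protein.

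Of the 13 mRNAs, 11 had their highest ERRγ value in replicate 2, and for 9 of them replicates 3 and 4 were both below every control. Of these 9, replicate 2 was within the control range for 5 and above it for 4. Over all genes tested, 30.3% had every ERRγ library below every control, so at least that share had replicates 3 and 4 below. When replicate 2 was left out, 32.4% of all genes had an adjusted p below 0.05 with ERRγ higher and 28.8% with ERRγ lower, whatever the fold. Of the 13 mRNAs, 7 had such a p: MT-ND3 (log2 fold change 0.95) and MT-CO3 (0.36) were higher, and MT-ND4L (-0.45), MT-ND6 (-0.39), MT-ND4 (-0.35), MT-ATP8 (-0.29) and MT-ND5 (-0.22) were lower. MT-ND3 alone among these 7 exceeded 1.5-fold. This view of the replicates was taken after the values were seen. Ambiguous reads, 4.55% to 4.87% of all reads with Ad CMV GFP and 5.69%, 9.84% and 9.79% with Ad CMV 3xFlag-Esrrg, also had replicate 2 nearest to the controls, and their part in these values was not tested.

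Within the mitochondrial mRNA pool the shares of some genes differed between the groups. MT-ND3 made up 2.43%, 2.64% and 2.42% of the mRNA counts of the chromosome with Ad CMV GFP and 3.22%, 4.84% and 4.85% with Ad CMV 3xFlag-Esrrg. MT-CO3 made up 12.3%, 13.3% and 12.1% against 13.7%, 16.3% and 16.1%. The share of MT-ND4 went the other way, from 16.37%, 15.99% and 16.47% to 14.6%, 12.8% and 12.9%. For these 3 genes replicate 2 was the ERRγ library nearest to the controls. In all, the groups did not overlap in share for 9 of the 13 mRNAs: MT-ND1, MT-CO2, MT-CO3 and MT-ND3 had a larger share with ERRγ, and MT-CO1, MT-ATP6, MT-ND4L, MT-ND4 and MT-CYB a smaller one. In normalized CPM, 27.8% of all tested genes did not overlap with ERRγ higher and 30.3% with ERRγ lower. Shares of 1 total move together, and some gaps were small. For MT-CO2 the highest control had 8.14% and the lowest ERRγ library 8.21%. Scaled to the mRNA total of the chromosome, MT-ND3 was still called higher (log2 fold change 0.79, SE 0.22, adjusted p = 0.007) and MT-CO3 (0.29, SE 0.23) and MT-ND4 (-0.28, SE 0.23) were not. In that scaling the same 8 members were called higher, where 18.6% of all genes tested were.

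Per kilobase of gene, MT-CO3 was the most abundant mRNA in both groups, at 9960 ± 592 normalized CPM per kb with Ad CMV GFP and 11911 ± 115 with Ad CMV 3xFlag-Esrrg (SD, n = 3). In the controls MT-CO1 (7413 ± 551), MT-CO2 (7364 ± 321) and MT-ND4 (7345 ± 391) followed with overlapping ranges, then MT-ATP6 and MT-ND1. MT-ND3 held rank 8 at 4486 ± 288 normalized CPM per kb, in a range that overlapped with those of its neighbours MT-ND2 and MT-CYB. With ERRγ it held rank 3 at 7499 ± 965, where its range overlapped with those of MT-CO2 above and MT-CO1 below. The lowest levels in both groups were those of MT-ND5, MT-ND4L and MT-ND6, with 1550 ± 50.5 for MT-ND6 in the controls. In all, 6 of the 13 mRNAs had the same rank in both groups.

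Both ribosomal RNAs of the mitochondrial ribosome were called higher. MT-RNR1, the small-subunit 12S rRNA at chrM:648-1601, was at 26.5, 24.1 and 36.4 normalized CPM with Ad CMV GFP and at 49.0, 69.0 and 61.8 with Ad CMV 3xFlag-Esrrg (log2 fold change 1.05, SE 0.17, adjusted p = 0.000612). MT-RNR2, the large-subunit 16S rRNA at chrM:1671-3229, was at 43.2, 40.8 and 64.8 against 93.1, 106.7 and 93.2 (log2 fold change 0.98, SE 0.16, adjusted p = 0.000755). The groups did not overlap for either gene, and replicate 4 was the highest control for both. The ratio of MT-RNR2 to MT-RNR1 counts was 1.63, 1.69 and 1.78 against 1.90, 1.55 and 1.51. The means were close (1.70 and 1.65), but replicate 2 of the ERRγ group was above the control range and its replicates 3 and 4 below it. The 2 rRNA genes lie next to each other, with MT-TV between them, at the start of the heavy-strand transcript. Their counts are what the removal of rRNA left behind, 746 to 2323 for MT-RNR1 per library, so levels before depletion are not known. The efficiency of that step per library was not measured, and its part in the difference was not tested.

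The tRNA genes were sparsely counted: 6 of 22 had 0 counts in every library (MT-TQ, MT-TW, MT-TN, MT-TS1, MT-TK and MT-TR). A count of 0, taking 3 counts as the limit, allows up to 0.0880 to 0.112 normalized CPM of reads assigned to 1 place, depending on the library. It sets no limit on reads that were not assigned: for 5 of these 6 genes, all but MT-TR, 100% of the 31-base stretches also occurred in the nuclear chromosomes. MT-TI, MT-TA, MT-TD, MT-TG, MT-TL2, MT-TE and MT-TT had at most 5 counts in any library, and MT-TH at most 13. Mature tRNAs are short, folded and modified and are poorly captured in libraries of this kind, so that counts on a tRNA gene can come from precursors as well as from the tRNA. The counts allowed no test of these 14 genes, and how far depth, capture, shared sequence or abutting neighbours account for the low counts was not tested.

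Of the 8 tested tRNA genes, 5 were called higher. Their sequences, from GRCh38 and written in the sense of the gene, are given because they fall on both strands and at 4 separate places of the chromosome. MT-TV (tRNA-Val, chrM:1602-1670, plus strand) and MT-TS2 (1 of the pair of tRNA-Ser genes, chrM:12207-12265, plus strand) belong to the heavy-strand transcript. MT-TC (tRNA-Cys, chrM:5761-5826), MT-TY (tRNA-Tyr, chrM:5826-5891) and MT-TP (tRNA-Pro, chrM:15956-16023) lie on the minus strand. The capital A marks the base that MT-TC and MT-TY share.
MT-TV: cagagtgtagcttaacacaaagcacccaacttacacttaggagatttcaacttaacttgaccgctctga
MT-TY: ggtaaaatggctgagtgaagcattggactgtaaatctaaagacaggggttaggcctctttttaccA
MT-TC: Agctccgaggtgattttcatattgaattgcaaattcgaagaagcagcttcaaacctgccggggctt
MT-TS2: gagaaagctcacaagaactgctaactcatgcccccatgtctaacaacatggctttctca
MT-TP: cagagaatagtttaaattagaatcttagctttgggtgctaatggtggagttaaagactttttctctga

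MT-TP was the most counted tRNA gene and the one with the smallest error. It had 921, 1066 and 1190 counts with Ad CMV GFP and 1877, 3269 and 3158 with Ad CMV 3xFlag-Esrrg, or 32.7, 34.5 and 35.95 against 70.2, 97.1 and 92.7 normalized CPM. The groups were far apart compared with the spread of the controls (log2 fold change 1.34, SE 0.13, adjusted p = 4.1e-05). MT-TP and MT-TF border the noncoding control region, 1122 bases that hold the promoters and the heavy-strand origin, on its 2 sides. MT-TF (tRNA-Phe, chrM:577-647), the first gene of the heavy-strand transcript, had 302, 283 and 242 counts against 220, 277 and 265 and did not pass the threshold (log2 fold change -0.16, SE 0.15, adjusted p = 0.392). The count ratio of MT-TP to MT-TF was 3.05, 3.77 and 4.92 with Ad CMV GFP and 8.53, 11.8 and 11.9 with Ad CMV 3xFlag-Esrrg, with no overlap.

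MT-TY had 42, 60 and 40 counts with Ad CMV GFP and 91, 187 and 202 with Ad CMV 3xFlag-Esrrg, the largest fold change of the 23 members tested (log2 fold change 1.69, SE 0.26, adjusted p = 0.000465). Its neighbour MT-TC had 15, 20 and 28 counts against 27, 60 and 45 (log2 fold change 1.02, SE 0.30, adjusted p = 0.0165). In raw counts the highest control of MT-TC, replicate 4, was above the lowest ERRγ library, replicate 2, and the groups separated only after normalization. The call of MT-TC was lost when Ad CMV GFP replicate 1 or 3 or Ad CMV 3xFlag-Esrrg replicate 3 was left out, with adjusted p between 0.0574 and 0.0845. MT-TV, between the rRNA genes, had 48, 55 and 72 counts against 66, 136 and 130 (log2 fold change 0.87, SE 0.23, adjusted p = 0.00936). MT-TS2 had 5, 7 and 7 counts against 12, 15 and 17 (log2 fold change 1.16, SE 0.35, adjusted p = 0.0185). The call of MT-TS2, the least counted gene tested, did not hold in DESeq2 (adjusted p = 0.0564), with no filter on low counts (0.0596) or without any one of Ad CMV GFP replicates 1, 3 and 4 or Ad CMV 3xFlag-Esrrg replicate 4 (0.0556 to 0.0816). With library size alone or with the no-feature share as a covariate, MT-TV, MT-TC and MT-TS2 were not called.

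MT-TL1 and MT-TM were not called either. MT-TL1, 1 of the pair of tRNA-Leu genes and next to MT-RNR2, had 10, 17 and 21 counts against 8, 14 and 10 (log2 fold change -0.61, SE 0.36, adjusted p = 0.183). MT-TM, the tRNA-Met gene, had 29, 11 and 29 counts against 19, 33 and 46 (log2 fold change 0.45, SE 0.38, adjusted p = 0.355). The groups overlapped for both, and their standard errors were the largest of the 23 genes after normalization.

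**Figure D4:**
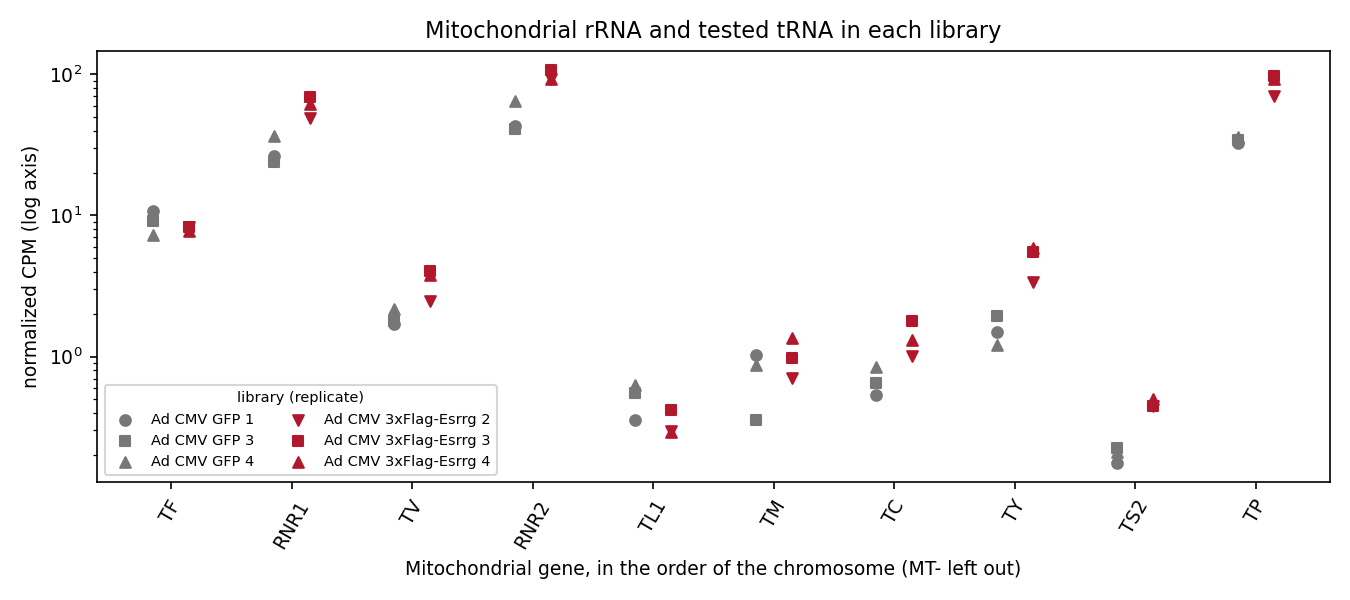
Normalized CPM (log axis) of the 2 mitochondrial rRNAs and the 8 tested tRNAs in each Ad CMV GFP (grey) and Ad CMV 3xFlag-Esrrg (red) library, with the shape of a point giving the replicate. Every ERRγ library is above every control for MT-RNR1, MT-RNR2, MT-TV, MT-TC, MT-TY, MT-TS2 and MT-TP, and the groups overlap for MT-TF, MT-TL1 and MT-TM.

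The reading of the small genes is limited by how reads were assigned. Of 538 genes whose exons lie wholly under exons of the opposite strand, 2.42% reached 60 counts over the 6 libraries, against 36.7% of 35696 genes that share no exon base with another gene. The kit kept strand information, but the counts thus behave as if the strand of a read was not used. Reads from MT-TP, MT-TC, MT-TY and MT-ND6 on the light strand then cannot be told apart from transcripts of the opposite strand. Reads that aligned to several places were 7.16% to 7.41% of all reads with Ad CMV GFP and 9.33%, 12.69% and 13.04% with Ad CMV 3xFlag-Esrrg. Of the 31-base stretches of MT-TV, 100% also occurred in the nuclear chromosomes, and the shares were 83.3% for MT-TC, 58.3% for MT-TY, 51.7% for MT-TS2 and 5.3% for MT-TP. They were 63.7% for MT-RNR1 and 36.4% for MT-RNR2. Levels of genes with high shares are uncertain, and the part of such reads in the differences was not tested.

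Nuclear pseudogenes of mitochondrial genes are near-copies that can draw reads of the originals. Of 404 such genes in the annotation, 70 were tested, 0 were called higher and 18 lower by edgeR, with a median log2 fold change of -0.58. DESeq2 called 0 higher and 13 lower. Of all tested genes, edgeR called 17.3% higher and 16.8% lower, and DESeq2 called 19.3% higher and 13.1% lower. At an unadjusted p under 0.05, whatever the fold, 0 pseudogenes were higher and 29 lower. No share of all genes is given for that threshold, so the 29 cannot be set beside the shares above. None of these 70 had groups that did not overlap with ERRγ higher, beside 27.8% of all tested genes. For 26 the groups did not overlap with ERRγ lower, beside 30.3% of all tested genes. The most counted, MTATP6P1, was at 304.2 ± 44.8 normalized CPM with Ad CMV GFP and 232.9 ± 51.4 with Ad CMV 3xFlag-Esrrg (SD, n = 3; log2 fold change -0.39, adjusted p = 0.0692). MTND4P12 (-0.29) and MTND2P28 (-0.04) followed in level and were not called either.

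The nuclear partners of the 13 mRNAs behaved differently from the mRNAs. Of 74 nuclear subunit genes of complexes I, III, IV and V, 71 were tested, with a median log2 fold change of 1.28. NDUFA3, NDUFA6 and NDUFS1 had too few counts to test, at most 18 in any library. Of those tested, 66 were called higher and 0 lower, beside 17.3% and 16.8% of all genes tested. DESeq2 also called 0 lower. By edgeR, NDUFV2 was the one gene below 0 with an unadjusted p under 0.05. Its adjusted p was 0.0418 and every ERRγ library was below every control, but it stayed under 1.5-fold (log2 fold change -0.35). Complex I had 29 of 34 tested nuclear subunits higher (median 1.15) beside 1 of 7 mitochondrial ones (median -0.16). All 9 nuclear subunits of complex III were higher (median 1.51) beside MT-CYB at -0.14, and all 11 of complex IV (median 1.61) beside 0 of 3 mitochondrial ones (median 0.10). In complex V all 17 were higher (median 1.27), with 0 of 2 mitochondrial subunits called (median -0.19). The largest fold changes per complex were those of NDUFB9 (1.62), CYC1 (2.12), COX5B (1.83) and ATP5MC1 (2.19, SE 0.18), which encodes the c ring of the ATP synthase.

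**Figure D5:**
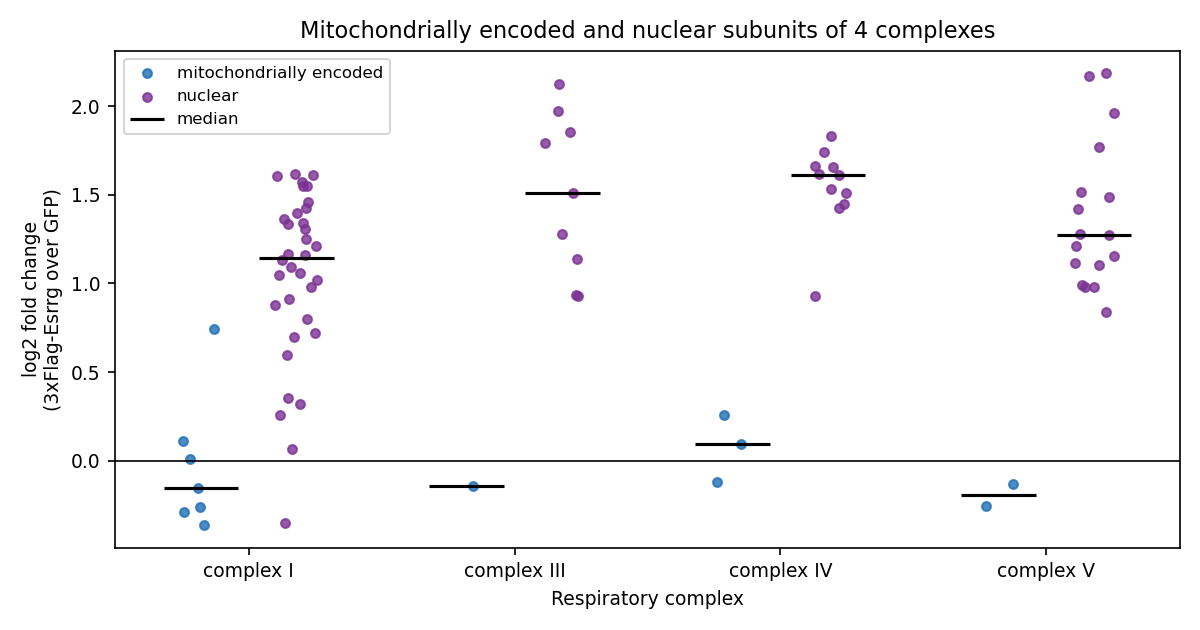
Log2 fold change (Ad CMV 3xFlag-Esrrg over Ad CMV GFP) of each mitochondrially encoded (blue) and nuclear (purple) subunit of 4 respiratory complexes, with black lines at the medians. The mitochondrial medians lie between -0.19 and 0.10 and the nuclear medians between 1.15 and 1.61.

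The count ratio of the 13 mitochondrial mRNAs to the nuclear subunits was 16.14, 14.45 and 15.98 with Ad CMV GFP and 9.34, 4.66 and 4.71 with Ad CMV 3xFlag-Esrrg. The groups did not overlap, and replicate 2 lay closest to the controls. This ratio is independent of the scaling of libraries. The nuclear sum was 3674, 4294 and 4077 normalized CPM against 7354, 12150 and 12371.

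Genes that maintain and express mitochondrial DNA gave a mixed picture: of 50 tested, 17 were called higher and 1 lower, beside 17.3% and 16.8% of all genes tested, with a median log2 fold change of 0.34. In transcription, POLRMT, the mitochondrial RNA polymerase, rose from 18.9 ± 0.631 to 48.7 ± 7.32 normalized CPM (SD, n = 3; log2 fold change 1.37, SE 0.12, adjusted p = 2.7e-05). TFAM, which packages mitochondrial DNA and helps to open its promoters, was at 43.8 ± 3.14 against 51.5 ± 3.68 and was not called (log2 fold change 0.24, adjusted p = 0.0711). TFB2M, the other initiation factor, had an adjusted p of 0.00338 but stayed under 1.5-fold (log2 fold change 0.48), and the elongation factor TEFM was at -0.41 (adjusted p = 0.0503). MTERF2, of the family of termination factors, was the one gene called lower (-0.60, SE 0.11, adjusted p = 0.00169). That call lay at the 1.5-fold cutoff and ended with DESeq2 (-0.52), RLE size factors (-0.52), scaling to the mitochondrial mRNA (-0.57), the covariate (-0.49) and without Ad CMV GFP replicate 1 or 3 or Ad CMV 3xFlag-Esrrg replicate 2 or 4 (-0.57 to -0.52). Of 6 transcription genes, 1 was called in each direction, a share near that of all genes tested.

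Over all genes tested 17.3% were called higher, and whether the small groups below differ from that share was not tested. Among 6 genes of replication and the nucleoid, 2 were higher, led by the helicase TWNK (log2 fold change 1.23, SE 0.10). Of 10 genes of transcript processing, 5 were higher, led by HSD17B10, a subunit of mitochondrial RNase P, which cuts the 5′ ends of tRNAs (1.88, SE 0.22). Of 8 genes of mRNA stability and decay, 3 were higher. SLIRP was among them (1.43, SE 0.17), whereas LRPPRC, its partner in a complex that stabilizes mitochondrial mRNAs, was not called (0.14, SE 0.10, adjusted p = 0.265). Of 12 genes of tRNA maturation and modification 4 were higher, led by YRDC (1.68, SE 0.15), and of 8 genes of rRNA modification 2 were higher, led by MRM1 (1.19, SE 0.19), a methyltransferase for the 16S rRNA.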

How the data were processed

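SH-SY5Y RNA-seq libraries (3 Ad CMV GFP, 3 Ad CMV 3xFlag-Esrrg) were grouped by their labels. The deposited values are raw read counts per Ensembl gene. Per the labels, the submitters' processing notes name CASAVA, Trim Galore 0.6.7, STAR 2.7.9a, HTSeq 0.11.3 and DESeq2 with build GRCh38; the strand setting and annotation release are not given in the sources used here. Identifiers were matched to GENCODE release 44 (60419 of 67060, 90.1%; the rest held 0.153% of counts), and the 5 summary entries of HTSeq were left out of library sizes.

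All genes were fitted together in R 4.3.3 with edgeR 4.0.16 (filterByExpr, TMM, quasi-likelihood test, Benjamini-Hochberg adjustment over 24500 genes). A gene was called at adjusted p below 0.05 and 1.5-fold, and SE is the log2 fold change divided by the square root of F. An exact permutation test of 3 against 3 libraries cannot go below p = 0.1. In a test on simulated data for this comparison over 24500 genes with 200 genes changed 2-fold, edgeR recovered 183 with 6 false calls. The changed genes were well counted, balanced in direction and far fewer than the 4234 and 4117 called here. No deviating library was simulated, so these rates need not hold for the real libraries. DESeq2 1.42.0 and other scalings, filters, cutoffs, a replicate block, a covariate and leaving out each library were tried as alternatives. Sequences and positions came from the GRCh38 genome and GENCODE, and all 37 genome sequences equalled the annotated transcripts. Stretches of 31 bases were searched in 24 nuclear chromosomes.

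The members and gene lists were chosen with earlier results of these data known. Named were all 37 members, ESRRG, the called list gene with the largest fold change per role and direction, POLRMT, TFAM, TFB2M, TEFM, LRPPRC and SLIRP, and the 3 most counted pseudogenes. NDUFV2 and the nuclear subunits with too few counts to test were named after the values were seen. The labels do not say whether equal numbers pair the libraries, so same-numbered replicates were not treated as pairs. Their deviations from the group means had correlations of 0.075 and 0 for numbers 3 and 4. Across the numbers the correlations were 0.1 and 0.018. The ERRγ means include replicate 2, which stood apart, so these correlations cannot tell whether the libraries are paired. Some cell type markers are not reported here.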

Additional observations from a re-analysis of the deposited data

Results flagged for a closer look

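Reads that HTSeq left unassigned are outside the comparisons above. Ambiguous reads reached 9.84% of all reads in the highest Ad CMV 3xFlag-Esrrg library, against 4.87% in the highest control. Reads aligned to several places reached 13.04% against 7.41%. Both shares were above the controls in all 3 ERRγ libraries. Which genes these reads came from cannot be read from the counts, and their part in the values of overlapping or duplicated mitochondrial genes was not tested.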

How the results depend on the processing

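MT-RNR1, MT-TY and MT-TP were called higher under every alternative run, and MT-RNR2 under all but the 2-fold cutoff, which left 1 rRNA. As processed above, 17.3% of all genes tested were called higher and 16.8% lower. These shares were 8.98% and 30.9% with library size alone and 7.24% and 5.4% with the no-feature share as a covariate. They were 24.3% and 23.5% with no fold cutoff, 7.97% and 8.09% with the 2-fold cutoff, and 19.4% and 23.2% with the replicate block. The mRNA count went from 1 higher to 0 with library size alone, the 2-fold cutoff and the no-feature share of each library as a covariate, and from 0 lower to 2 with library size alone. The no-feature share was 51.3% to 52.2% with Ad CMV GFP and 29.5% to 46.6% with Ad CMV 3xFlag-Esrrg. The covariate thus largely follows the group, and its effect cannot be told apart from that of the virus. The tRNA count went from 5 to 2 with library size alone and with the covariate, and to between 3 and 5 with 1 library left out (3 without Ad CMV GFP replicate 1 or 3). Nuclear subunits, 71 of them tested, went from 66 higher to 30 with the covariate, beside 17.3% and 7.24% of all genes. Their lower calls went from 0 to 1 with library size alone and with no fold cutoff, beside 30.9% and 23.5% of all genes. Genes of mitochondrial DNA expression, 50 tested, went from 17 higher to 27 with no fold cutoff and 11 with the 2-fold cutoff. Beside these 2 counts stand 24.3% and 7.97% of all genes. Their lower calls went from 1 to 0 with DESeq2, RLE size factors, mitochondrial mRNA scaling and the 2-fold cutoff, 2 with all reads as scaling and with at least 10 counts in every library, 3 with the replicate block, 6 with no fold cutoff, 7 with library size alone, and 0 to 2 with 1 library left out. With all reads as denominator the mean mitochondrial share was 2.52% (Ad CMV GFP) and 2.40% (Ad CMV 3xFlag-Esrrg) in place of 6.95% and 5.55%.

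Signs of uncalled genes turned. With library size alone, which moved the median of all genes from -0.10 to -0.42, the log2 fold change was -0.19 for MT-ND1, -0.29 for MT-ND2, -0.22 for MT-CO2, -0.058 for MT-CO3, -0.18 for LRPPRC and -0.083 for TFAM. For MT-ND2 it was -0.045 with all reads as scaling, -0.021 with at least 10 counts in every library and -0.028 to 0.093 with 1 library left out. With the replicate block it was -0.048 for MT-ND1 and -0.17 for MT-ND2, and the block gave 4742 higher and 5693 lower genes in all against 4234 and 4117. Number 1 occurs only with Ad CMV GFP and number 2 only with Ad CMV 3xFlag-Esrrg. The block therefore compares the groups through numbers 3 and 4 alone, and replicate 2 of the ERRγ group does not enter the difference. The block also called MT-TM (0.95, adjusted p = 0.0172) and not MT-TS2 (adjusted p = 0.0806), so that its 5 tRNA calls are not the same genes; the numbers are not known to pair the libraries. With the covariate it was -0.30 for MT-TM, 0.14 for MT-CO1, 0.10 for MT-ATP8, 0.16 for MT-ATP6, 0.11 for MT-ND4L, 0.12 for MT-ND4, 0.27 for MT-ND5, 0.31 for MT-ND6, 0.11 for MT-CYB and 0.0064 for TEFM. Where no construction of the alternative explains a change, the cause was not tested. Counts were too low to test 14 of 22 tRNAs.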
